A study of Homo sapiens with 4 samples.

Results

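The genes examined here form the gate at which a cell leaves G1 for S phase, and they were taken by name. They are the D cyclin genes CCND1, CCND2 and CCND3, the kinase genes CDK4, CDK6 and CDK2, the CIP/KIP inhibitor genes CDKN1A, CDKN1B and CDKN1C, and RB1, 10 genes of the 20263 counted. All 10 were found in the table by Ensembl ID. RNA was sequenced from HCT116, a long-established line of human colorectal carcinoma cells, labelled wild type. Exposure to HJ-4 at 32 µM lasted 24 h (2 libraries), and the comparison was with the vehicle, 0.1% DMSO, over the same time (2 libraries). HJ-4 is a derivative of piperine, the pungent alkaloid of black pepper. The methods of the study call the replicates biological, whereas the labels do not say whether the 2 libraries of a condition stem from separate cultures, so every p-value measures the spread between these libraries only. The dose is that of the labels and of the methods, while a caption of the study names a lower one for the transcriptome.

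In G1, D cyclins bind CDK4 and CDK6, and the complexes begin to phosphorylate RB, the product of RB1. RB then releases the E2F factors, which switch on cyclin E and the genes of DNA synthesis, and cyclin E with CDK2 completes the phosphorylation. The inhibitors p21, p27 and p57, encoded by CDKN1A, CDKN1B and CDKN1C, bind cyclin-kinase complexes and block CDK2, and p21 and p27 also help D cyclins to assemble with CDK4. CCND1 is a target of Wnt/β-catenin signaling, which is constitutively active in HCT116 cells.

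Total counts were 34359889 and 33762230 in the HJ-4 libraries and 31120459 and 29769568 in the DMSO libraries. Mitochondrially encoded genes took 6.01% and 6.41% of the counts with HJ-4 and 6.59% and 7.73% with DMSO, so that the conditions did not overlap, and the part of this in the results was not tested. Of 8 markers of colorectal epithelium, 6 were expressed, with EPCAM at 244 to 251 CPM, that is, counts scaled to a common library size, with HJ-4 and 247 to 268 CPM with DMSO, whereas VIL1 and CEACAM5 stayed under 0.13 CPM in every library. The summed epithelial markers lay at 4194 to 4386 CPM with HJ-4 and 3981 to 4474 CPM with DMSO. Markers of other cell types were near 0 apart from COL1A1 and CD68. For the fibroblast list, with COL1A2, DCN and LUM at 0, the sum was 59.0 to 61.3 CPM with HJ-4 and 59.8 to 63.1 CPM with DMSO. The leukocyte list, with CD3E and MS4A1 at 0 and PTPRC at no more than 0.0599 CPM, summed to 46.4 to 50.7 CPM with HJ-4 and 34.03 to 40.1 CPM with DMSO, nearly all of it CD68, and the endothelial list reached no more than 1.497 CPM with HJ-4 and 1.18 CPM with DMSO.

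To show the start regions of the genes with the largest positive fold changes beside one whose level hardly differed, the RefSeq windows of CDKN1A, CDKN1B and CDK4 are given, 250 bases before to 50 bases after the annotated start on GRCh38.p14, 5′ to 3′ on the strand of the gene. They lie at chr6:36678464-36678763 (plus strand), chr12:12717118-12717417 (plus strand) and chr12:57752261-57752560 (minus strand). Capitals mark GC boxes (GGGCGG or its complement) in all windows, CCAAT boxes (CCAAT or its complement) in that of CDKN1B and E-boxes (CACGTG) in that of CDK4.
CDKN1A: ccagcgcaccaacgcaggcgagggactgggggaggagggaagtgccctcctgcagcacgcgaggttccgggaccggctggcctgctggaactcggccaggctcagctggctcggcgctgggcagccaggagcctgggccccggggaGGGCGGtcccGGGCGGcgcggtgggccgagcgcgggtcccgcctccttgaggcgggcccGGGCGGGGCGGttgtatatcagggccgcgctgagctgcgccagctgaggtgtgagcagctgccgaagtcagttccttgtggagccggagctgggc
CDKN1B: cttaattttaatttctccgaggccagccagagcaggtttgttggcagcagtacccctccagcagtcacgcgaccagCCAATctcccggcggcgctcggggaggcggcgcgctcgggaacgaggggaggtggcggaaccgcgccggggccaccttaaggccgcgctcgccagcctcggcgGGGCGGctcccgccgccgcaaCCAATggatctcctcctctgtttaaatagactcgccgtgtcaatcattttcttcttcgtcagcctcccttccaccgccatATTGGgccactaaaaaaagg
CDK4: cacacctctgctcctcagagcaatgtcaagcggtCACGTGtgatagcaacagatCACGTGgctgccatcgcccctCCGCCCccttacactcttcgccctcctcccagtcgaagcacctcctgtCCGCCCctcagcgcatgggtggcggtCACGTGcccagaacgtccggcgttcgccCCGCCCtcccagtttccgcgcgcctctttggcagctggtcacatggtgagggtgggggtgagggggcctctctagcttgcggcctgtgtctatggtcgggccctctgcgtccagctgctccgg
The CDKN1A window held 4 GC boxes, of which the last pair shares a base, and no CCAAT box or E-box. That of CDKN1B held 1 GC box and 3 CCAAT boxes, and that of CDK4 held 3 GC boxes and 3 E-boxes. Of 35116 RefSeq windows of the same length, 45.0% held a GC box, 34.6% a CCAAT box and 7.26% an E-box on either strand. Neither an E2F motif (TTTNNCGC, in 6.89% of windows) nor an AP-1 motif (TGANTCA, in 7.71%) nor a forkhead motif (TGTTTAC, in 3.42%) was found in these 3 windows, which says only that these letters are not there. Of the 10 genes, 6 had at least 1 window (9 windows in all), and the window listed for RB1 is an internal start. The windows of CCND3 held 5, 4 and 0 GC boxes, and those of CDK6 held 3 and 0. G and C made up 74.3% of the CDKN1A window, 62.3% of that of CDKN1B and 66.0% of that of CDK4. The median over all 35116 windows was 58.7%.

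Of the 10 genes, 9 passed the filter on low counts and were tested together with all other expressed genes, 14044 in total, by the quasi-likelihood test of edgeR, and p-values were adjusted over all of them by the Benjamini-Hochberg method. None of the 9 passed an adjusted p of 0.05, as against 0.0498% of all genes tested (7 genes). Before adjustment, at p under 0.05, CDKN1A was higher and CDK2 and RB1 were lower with HJ-4, 3 of 9 genes, where 15.9% of all genes passed (7.93% in each direction). DESeq2 called CDKN1A alone (adjusted p = 0.0016), and 4.31% of all genes with its adjusted p were called. The libraries of the conditions did not overlap for 7 of the 9 genes (77.8%), 4 higher and 3 lower with HJ-4, and the same held for 50.8% of all genes tested (25.2% higher and 25.6% lower). The median log2 fold change was 0.03 over the 9 genes and 0.00 over all genes, and the median of its size was 0.24 and 0.17. Each fold change sets HJ-4 over DMSO, CPM were scaled by TMM, and each 95% interval is from edgeR and not adjusted for the number of genes. In RNA from whole cultures, fewer cells that express a gene and less of its RNA per cell cannot be told apart.

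**Figure D1:**
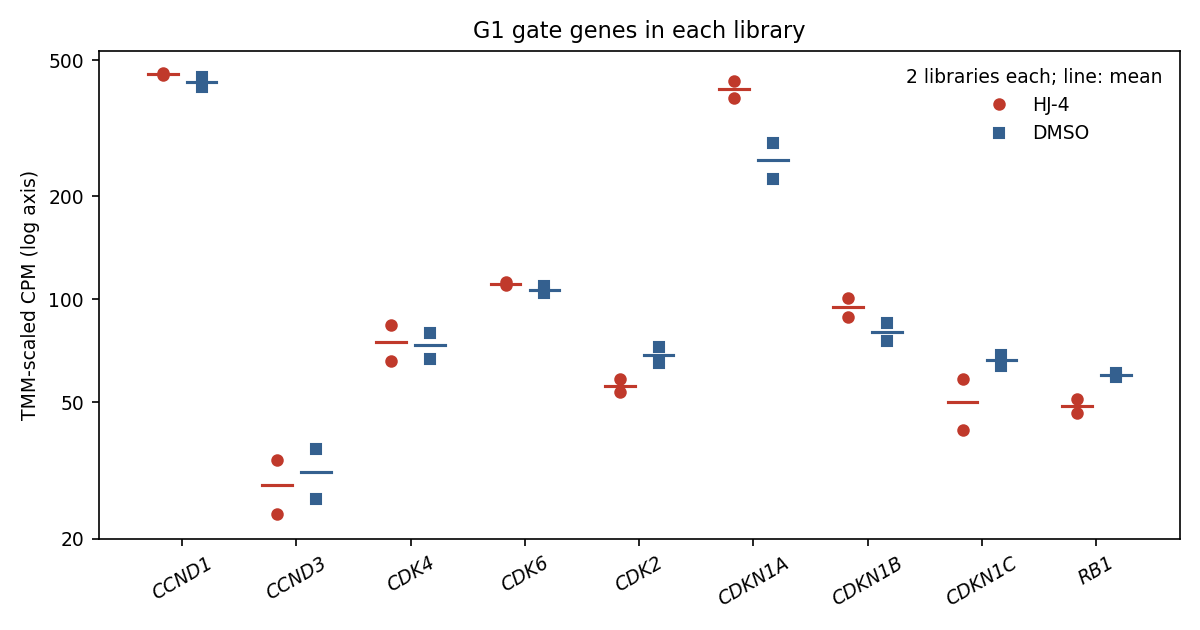
CPM (log axis) of the 9 tested G1 gate genes in each library, with 2 HJ-4 libraries (circles, left) and 2 DMSO libraries (squares, right) per gene and horizontal lines for the means. CDKN1A lies at 388 and 435 CPM with HJ-4 and at 287 and 224 CPM with DMSO, and CCND3 and CDK4 are the genes whose conditions overlap.

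Among the inhibitors, CDKN1A had the largest difference of the 9 genes. The gene of p21 was at 388 and 435 CPM with HJ-4 and at 287 and 224 CPM with DMSO. The conditions did not overlap, with HJ-4 higher, and the gap of 0.44 between the nearest libraries on the log2 scale exceeded the distance between replicates, 0.17 with HJ-4 and 0.36 with DMSO. The log2 fold change was 0.69 (standard error 0.14, 95% interval 0.32 to 1.06, adjusted p = 0.17 from edgeR), a 1.61-fold difference. By size, 5.95% of all genes had a larger log2 fold change in either direction, and by p CDKN1A stood at place 394. Leaving out 1 library at a time gave log2 fold changes of 0.52 to 0.88, all positive. The edgeR adjusted p was 0.56 and 0.57 without HJ-4 replicate 1 or 2, and 0.063 and 0.11 without DMSO replicate 1 or 2. CDKN1A lies on chromosome 6 of GRCh38 from 36676460 to 36687337 on the plus strand in GENCODE v44.

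CDKN1B, which encodes p27 and is held in check mostly by protein turnover, was at 89.1 and 101 CPM with HJ-4 and at 85.3 and 75.6 CPM with DMSO. The HJ-4 libraries were the higher ones, but by less than the replicates differed: the nearest libraries were 0.06 apart on the log2 scale, and replicates 0.18 apart with HJ-4 and 0.17 with DMSO. Its log2 fold change was 0.24 (standard error 0.11, 95% interval -0.04 to 0.52, adjusted p = 0.36 from edgeR). The sign was positive with each library left out (0.14 to 0.33).

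CDKN1C, the imprinted gene of p57, had the opposite sign. Its level was 41.5 and 58.7 CPM with HJ-4 and 69.0 and 64.0 CPM with DMSO. The HJ-4 libraries lay below the DMSO libraries but 0.50 apart from each other on the log2 scale, which is more than the 0.13 between the nearest libraries of the conditions. The log2 fold change was -0.41 (standard error 0.18, 95% interval -0.87 to 0.06, adjusted p = 0.35 from edgeR). It was -0.19 without HJ-4 replicate 1 and -0.69 without HJ-4 replicate 2, so that its size rested on the library kept.

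**Figure D2:**
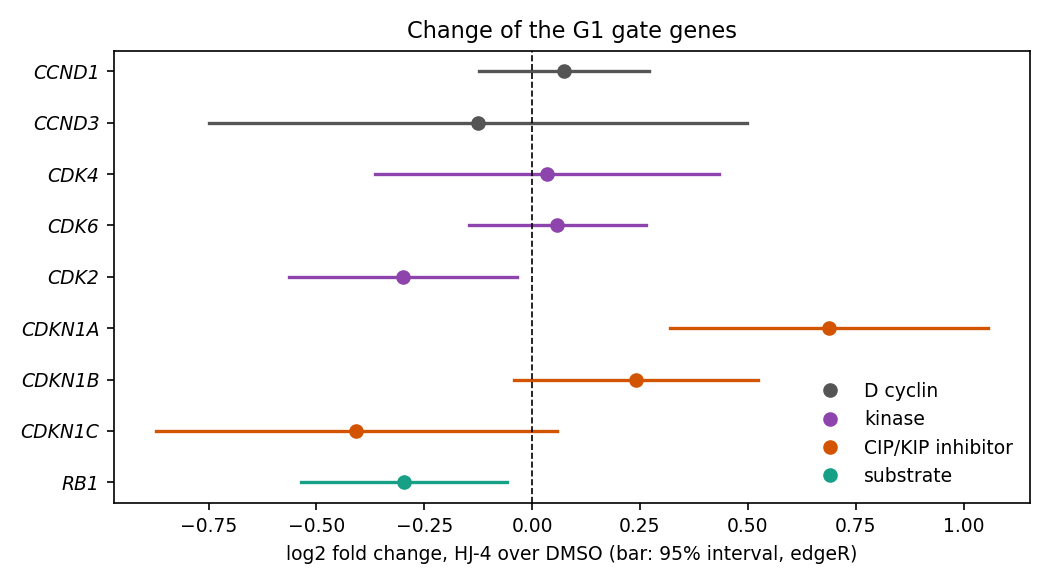
Log2 fold change, HJ-4 over DMSO, of the 9 tested genes with its 95% interval from edgeR, colored by role. The intervals of CDKN1A (0.32 to 1.06), CDK2 (-0.56 to -0.03) and RB1 (-0.54 to -0.06) leave out 0, and those of the other 6 genes include it.

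CCND1 was the predominant D cyclin gene of these cells, beside a lower level of CCND3, and its RNA was not lower in either HJ-4 library. It was at 459 and 451 CPM with HJ-4 and at 447 and 418 CPM with DMSO. All 4 libraries lay close together, with the HJ-4 libraries just above the DMSO libraries, 0.01 apart on the log2 scale, whereas the DMSO replicates differed by 0.10. The log2 fold change was 0.07 (standard error 0.08, adjusted p = 0.66 from edgeR). Its 95% interval ran from -0.12 to 0.27, and values without 1 library lay between 0.03 and 0.12. CCND1 lies on chromosome 11 from 69641156 to 69654474, where its end overlaps LTO1 on the opposite strand over 1399 bases. Counts of LTO1 reached no more than 2.24% of those of CCND1.

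CCND3 was at 23.6 and 33.9 CPM with HJ-4 and at 36.5 and 26.2 CPM with DMSO. The conditions overlapped, and in each the replicates lay far apart (0.52 on the log2 scale with HJ-4 and 0.48 with DMSO). Its log2 fold change of -0.13 (95% interval -0.75 to 0.50, adjusted p = 0.83 from edgeR) changed sign with the library left out, ranging from -0.42 without HJ-4 replicate 2 to 0.14 without DMSO replicate 1. CCND2 was hardly counted. It had 0 and 4 counts in the HJ-4 libraries and 0 in either DMSO library, where a count of 0 allows up to 3 counts, or 0.0873 CPM in HJ-4 replicate 1 and 0.0964 and 0.101 CPM with DMSO, for counting error only. It was not tested, and no fold change is given.

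Of the kinases, CDK4 and CDK6 showed no difference beyond the spread of the replicates, and CDK2 was lower in both HJ-4 libraries. CDK4, the catalytic partner of D cyclins, was at 84.3 and 66.2 CPM with HJ-4 and at 79.9 and 67.1 CPM with DMSO. The conditions overlapped (log2 fold change 0.03, 95% interval -0.37 to 0.43, adjusted p = 0.93 from edgeR), and the sign depended on the library left out (-0.16 without HJ-4 replicate 1 and 0.19 without HJ-4 replicate 2). CDK6, its close relative, was at 112 and 110.2 CPM with HJ-4 and at 109 and 104 CPM with DMSO. These values were the tightest of the set beside those of CCND1 (log2 fold change 0.06, standard error 0.08, 95% interval -0.15 to 0.26, adjusted p = 0.75 from edgeR).

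CDK2, the partner of cyclins E and A, was at 58.6 and 53.5 CPM with HJ-4 and at 72.8 and 65.1 CPM with DMSO. The nearest libraries of the conditions were 0.15 apart on the log2 scale, between the 0.13 of the HJ-4 replicates and the 0.16 of the DMSO replicates. Its log2 fold change was -0.30 (standard error 0.10, 95% interval -0.56 to -0.03, adjusted p = 0.28 from edgeR). Without 1 library it was -0.38 to -0.22.

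RB1, the gene of the substrate, was at 51.1 and 46.7 CPM with HJ-4 and at 59.2 and 61.1 CPM with DMSO. Here the gap between the conditions, 0.21 on the log2 scale, was wider than that between replicates (0.13 with HJ-4 and 0.05 with DMSO). The log2 fold change was -0.30 (standard error 0.09, 95% interval -0.54 to -0.06, adjusted p = 0.26 from edgeR), and -0.38 to -0.25 without 1 library. RB1 lies on chromosome 13 from 48303744 to 48599436.

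Some of these genes overlap counted genes on the opposite strand, and no source used here says whether the counting used strand. CDK2 (chromosome 12, 55966781 to 55972789) lies wholly within the annotated span of PMEL, a melanosome gene, which was at 4.29 and 4.65 CPM with HJ-4 and at 8.12 and 6.11 CPM with DMSO (log2 fold change -0.67, adjusted p = 0.24 from edgeR). The counts of PMEL were at most 11.2% of those of CDK2. CDK4 (chromosome 12, 57747727 to 57756013) overlaps TSPAN31 by 2493 bases and MARCHF9 by 911 bases, whose counts reached 30.6% and 78.2% of its own. TSPAN31, a tetraspanin gene, was at 20.5 and 20.3 CPM with HJ-4 and at 16.2 and 16.3 CPM with DMSO (log2 fold change 0.33, adjusted p = 0.25 from edgeR), and MARCHF9, a ubiquitin ligase gene, had a log2 fold change of 0.07. The genes overlapping CDKN1B (GPR19) and RB1 (RCBTB2 and LPAR6) had at most 3.78% of the counts of their partner. CDKN1A, CDKN1C, CCND3 and CDK6 overlap no other counted gene.

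Levels of different genes were compared per length, as TPM over the union of annotated exons. With HJ-4 the order was CDKN1A at 469 ± 30.7 TPM, CCND1 at 326 ± 8.85, CDK4 at 83.1 ± 15.4, CDKN1C at 68.8 ± 15.7, CDK2 at 49.2 ± 3.92, CDKN1B at 35.0 ± 2.58, CDK6 at 31.0 ± 0.90, RB1 at 26.0 ± 2.05 and CCND3 at 16.99 ± 4.06 TPM (SD, n = 2 libraries). With DMSO it was CCND1 at 306 ± 16.2 TPM, CDKN1A at 287 ± 51.2, CDKN1C at 90.4 ± 5.20, CDK4 at 80.1 ± 10.2, CDK2 at 59.8 ± 5.04, RB1 at 31.5 ± 0.54, CDK6 at 29.4 ± 1.19, CDKN1B at 29.3 ± 2.65 and CCND3 at 18.4 ± 4.39 TPM (SD, n = 2 libraries). CDK4 and CDKN1C did not differ beyond their spread with HJ-4, nor did CDKN1A and CCND1, CDKN1C and CDK4, RB1 and CDKN1B, or CDKN1B and CDK6 with DMSO. CCND1 and CDKN1A ranked among the abundant RNAs of vehicle-treated cells, with 97.5% and 97.3% of tested genes at a lower TPM in DMSO. The length used moved some levels: with the canonical transcript of Ensembl the mean with HJ-4 was 78.1 TPM for CDKN1B, 28.1 for CCND3, 18.9 for CDK6 and 213 for CCND1, and with the longest transcript it was 55.6, 30.4, 24.2 and 272 TPM. With the canonical lengths CDKN1B, not CDKN1C, was therefore the second inhibitor with HJ-4.

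By TPM, the 3 inhibitor genes together came to 538 and 607 with HJ-4 and to 449 and 365 with DMSO. CDKN1A made up 83.1% and 80.8% of that sum with HJ-4 and 72.1% and 68.8% with DMSO, and CDKN1C 10.7% and 13.2% with HJ-4 and 20.96% and 23.7% with DMSO. The D cyclins summed to 347 and 339.9 TPM with HJ-4 and to 339 and 310.0 TPM with DMSO, values that overlapped once the longest transcript set the length, and CCND1 held 94.1% to 95.9% of that with HJ-4 and 93.7% to 95.1% with DMSO. With canonical transcript lengths its share was 86.4% to 90.3% with HJ-4 and 85.4% to 88.4% with DMSO, and the mean CCND3 share with HJ-4 was 11.6%, against 4.96% with exon-union lengths. The 3 kinases summed to 178 and 149 TPM with HJ-4 and to 181 and 158 TPM with DMSO, so that the conditions overlapped. Within them CDK2 took 29.3% and 31.2% with HJ-4 and 35.0% and 35.7% with DMSO. In each HJ-4 library there was more CDKN1A than CCND1 RNA per length, in a ratio of 1.34 and 1.53, against 1.02 and 0.85 in the DMSO libraries. That ratio was above its DMSO values in both HJ-4 libraries with the other lengths too (1.69 and 1.93 against 1.28 and 1.07 with the canonical transcripts). With 2 libraries per condition an exact permutation test of such a value cannot give a two-sided p under 0.333, so none was run.

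**Figure D3:**
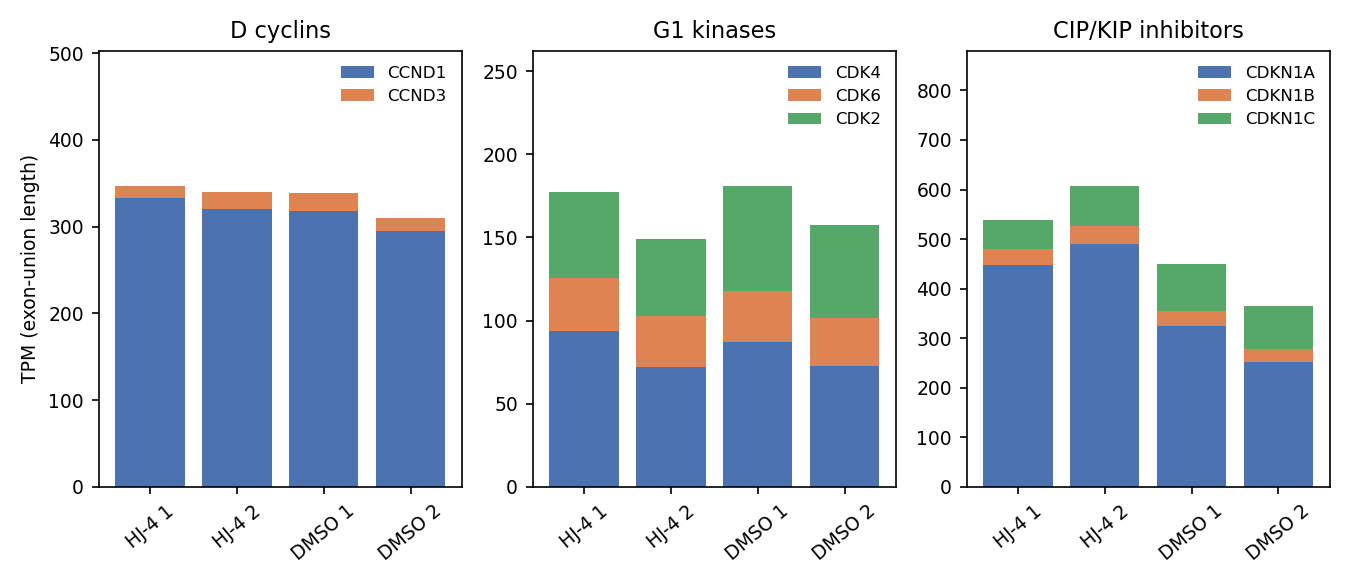
TPM (exon-union length) of the D cyclin, kinase and CIP/KIP inhibitor genes, stacked within each library from 0, with the HJ-4 libraries left of the DMSO libraries and an axis of its own per family. The inhibitor sum is 538 and 607 TPM with HJ-4 and 449 and 365 TPM with DMSO, the CDKN1A segment is the one that is larger with HJ-4 by the most, and the kinase sums (178 and 149 TPM with HJ-4, 181 and 158 TPM with DMSO) overlap.

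The genes around the gate were followed in 7 lists of 73 genes, 71 of them tested. None passed an adjusted p of 0.05 in edgeR. Before adjustment, 2 genes with HJ-4 higher and 7 with HJ-4 lower had p under 0.05, 9 of 71 and a smaller share than the 15.9% of all genes tested. DESeq2 called CCNE2, E2F2 and FOSL1, 3 of 71, against 4.31% of all genes. Of the 71, 30 had a positive and 41 a negative log2 fold change.

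Downstream of RB, cyclins E and A and the activating E2F factors had the lowest median, -0.445 over 6 tested genes, with 5 negative and 3 lower at an unadjusted p under 0.05, as 7.93% of all genes were. Over the 7 lists together, 2 of 71 tested genes were higher and 7 lower at that p, where 7.93% of all genes passed in each direction. CCNE2, one of the cyclin E genes, was at 2.50 and 2.16 CPM with HJ-4 and at 5.80 and 5.72 CPM with DMSO (log2 fold change -1.305, adjusted p = 0.10 from edgeR and 0.0014 from DESeq2). E2F2 was at 9.57 and 9.29 CPM with HJ-4 and at 15.96 and 16.5 CPM with DMSO (log2 fold change -0.78, adjusted p = 0.11 from edgeR and 0.0010 from DESeq2). For E2F1, another activating factor, the log2 fold change was -0.46, and for CCNA2, the cyclin A gene of somatic cells, it was -0.19 (edgeR adjusted p of 0.26 and 0.36). The other cyclin E gene, CCNE1, went the other way, at 36.0 and 39.0 CPM with HJ-4 and 32.0 and 32.6 CPM with DMSO (log2 fold change 0.22, adjusted p = 0.36 from edgeR). CCNA1 had no counts.

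The INK4 inhibitors, which bind CDK4 and CDK6 and keep D cyclins off, were negative in 4 of 4 genes. Their median was -0.13, against 0.00 over all genes, and the conditions overlapped for CDKN2A and CDKN2B. CDKN2C, the gene of p18, was at 12.2 and 13.8 CPM with HJ-4 and at 19.0 and 18.2 CPM with DMSO (log2 fold change -0.51, adjusted p = 0.19 from edgeR). For CDKN2A, CDKN2B and CDKN2D the log2 fold change was -0.13, -0.02 and -0.14 (edgeR adjusted p of 0.80, 0.94 and 0.54). Among the pocket protein partners and the DREAM/MuvB complex, which represses cell cycle genes in resting cells, 5 of 11 were positive and the median was -0.04. RBL1, the gene of p107, which is expressed in cycling cells, had -0.48 on the log2 scale, and RBL2, the gene of p130, which prevails in resting cells, had 0.20 (edgeR adjusted p of 0.26 and 0.33). RBL1 was at 7.52 and 6.53 CPM with HJ-4 and at 9.11 and 10.5 CPM with DMSO, and RBL2 at 73.3 and 74.5 CPM with HJ-4 and at 62.2 and 66.6 CPM with DMSO. Neither pair of conditions overlapped, which also held for 50.8% of all genes tested. In this list of 11 genes, 3 were higher and 2 lower without overlap. The E2F partner gene TFDP1 had -0.19 and the MuvB subunit gene LIN52 0.25 (adjusted p = 0.34 and 0.45 from edgeR).

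Of 9 genes that fold or phosphorylate the G1 kinases, 3 were positive, with a median of -0.08. The phosphatase gene CDC25A, whose product removes inhibitory phosphates from CDK2, was at 9.57 and 9.32 CPM with HJ-4 and at 13.3 and 11.1 CPM with DMSO (log2 fold change -0.37, adjusted p = 0.31 from edgeR). The chaperone gene HSP90AA1 had a log2 fold change of 0.58, and CDK7 and MNAT1, of the CDK-activating kinase, had 0.15 and -0.22 (adjusted p = 0.32, 0.42 and 0.32 from edgeR). For HSP90AA1 the DMSO replicates (1034 and 1673 CPM) lay 0.695 apart on the log2 scale, and the nearest libraries of the conditions 0.216 apart. Turnover genes of D cyclins, p21 and p27 numbered 18, with 10 positive, a median of 0.01 and 0 at an unadjusted p under 0.05. SKP2, the subunit that targets p27, was at 14.5 and 14.5 CPM with HJ-4 and at 13.5 and 15.0 CPM with DMSO (log2 fold change 0.02, adjusted p = 0.94 from edgeR). DTL, the subunit that targets p21 in S phase, had -0.38, CUL4A, the cullin of the same ligase, 0.16, RNF123 -0.14 and SKP1 -0.15.

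**Figure D4:**
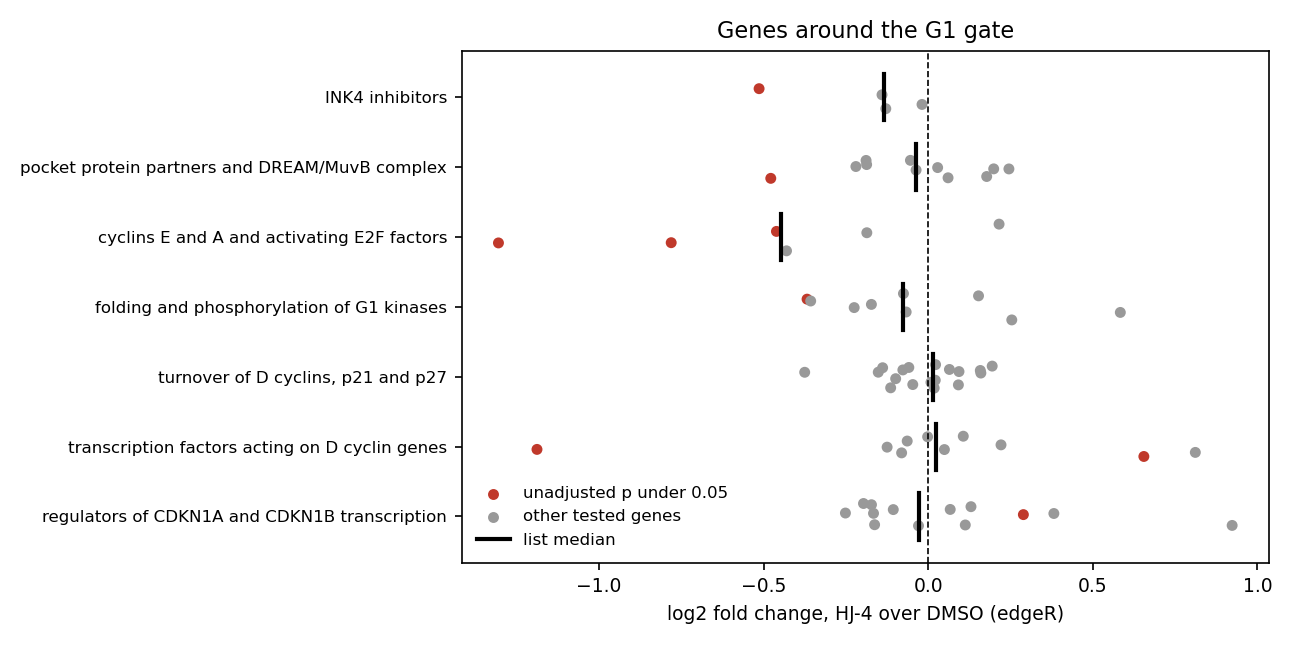
Log2 fold change, HJ-4 over DMSO, of the 71 tested genes of 7 lists around the G1 gate, as points (red at an unadjusted p under 0.05 in edgeR) with a black bar at each list median; points are spread vertically for sight only. The medians run from -0.445 for cyclins E and A and activating E2F factors to 0.02 for transcription factors acting on D cyclin genes.

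Transcription factors that act on D cyclin genes were positive in 5 of 10 tested genes, with a median of 0.02. FOSL1, an AP-1 subunit, was at 208 and 222 CPM with HJ-4 and at 161 and 112 CPM with DMSO (log2 fold change 0.66, adjusted p = 0.24 from edgeR and 0.027 from DESeq2, and 0.044 in edgeR without DMSO replicate 1). MYC was at 4.52 and 8.99 CPM with HJ-4 and at 17.5 and 13.3 CPM with DMSO (log2 fold change -1.19, adjusted p = 0.25 from edgeR). CTNNB1, the gene of β-catenin, was at 274 and 255 CPM with HJ-4 and at 225 and 305 CPM with DMSO, with the DMSO libraries on either side of the HJ-4 libraries (log2 fold change 0.00, 95% interval -0.41 to 0.41). SP1, whose product binds GC boxes, stood at 0.22 on the log2 scale (edgeR adjusted p of 0.34), and LEF1 had no counts.

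Of 13 regulators of CDKN1A and CDKN1B transcription, 6 were positive, with a median of -0.03. KLF6, a zinc finger activator of CDKN1A, was at 385 and 363 CPM with HJ-4 and at 319 and 294 CPM with DMSO (log2 fold change 0.29, adjusted p = 0.24 from edgeR). The acetyltransferase gene EP300 and the deubiquitinase gene USP28 had -0.17 and -0.25 (edgeR adjusted p of 0.40 and 0.35).

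**Figure D5:**
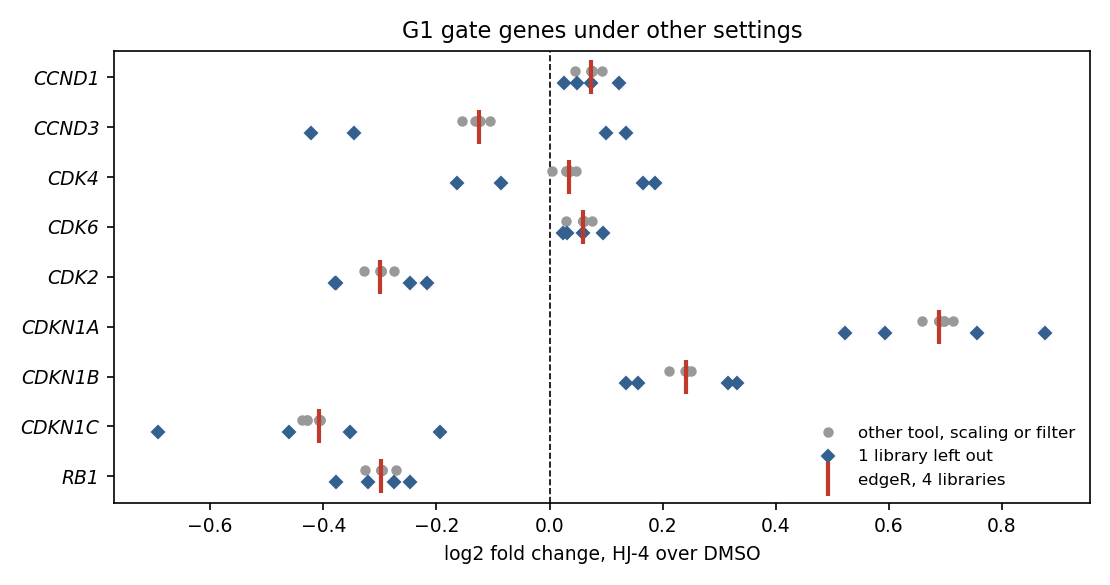
Log2 fold change, HJ-4 over DMSO, of the 9 tested genes with edgeR on 4 libraries (red bars), under 9 other tools, scalings or filters (circles) and with 1 library left out (diamonds). CCND3 (-0.42 to 0.14) and CDK4 (-0.16 to 0.19) change sign with the library left out, and CDKN1A stays between 0.52 and 0.88.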

How the data were processed

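The authors deposited whole-number counts of reads per Ensembl gene ID, not normalized, in 1 table of 20263 genes and 4 libraries. The methods of the study name STAR on GRCh38 and featureCounts, whereas HISAT2, bedtools and RSEM stand in the submitters' processing notes. No source used here says which made the table or gives its annotation and strand setting. The methods also speak of biological triplicates, and 2 libraries per condition were analysed here. Each column was assigned through the library name in its sample's labels. Total counts of 29769568 to 34359889 per library set the counting error. Symbols, coordinates and lengths came from GENCODE v44 (20148 IDs matched). After filterByExpr (14044 genes) and TMM scaling, glmQLFit and glmQLFTest of edgeR 4.0.16 (R 4.3.3) were run on a model of condition alone, adjusted by Benjamini-Hochberg. A standard error is the log2 fold change over the square root of F. The study used limma after TPM scaling; a count test was preferred here for deposited counts. TPM were computed here from counts per exon-union length, and motifs were searched on both strands of the RefSeq windows.

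The alternatives were a replicate block, each library left out, size factors and the Wald test of DESeq2 1.42.0, scaling by total counts, no filter, a filter at a mean of 5 CPM, limma-voom and limma on log2(TPM + 1) (limma 3.58.1), robust fitting and the longest transcript as length; canonical transcript length was added after seeing the data. The tests were first tested on simulated data. The 10 genes and the lists were chosen with earlier results of these data known. Named besides the 10 are up to 4 genes of each list with the smallest p, MDM2, CTNNB1 and SKP2, counted genes overlapping the 10, and the 3 genes (mean of 5 CPM or more) most like CDKN1A and CCND1 over the 4 libraries. CCNE1, CCNA1, E2F3, LEF1 and MDM4 fall outside this rule and were named after their values were seen. Results for some items that the rule names are not reported here.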

Additional observations from a re-analysis of the deposited data

How the results depend on the processing

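Of 81 values of the 9 genes under another tool, scaling or filter or with a replicate block, 80 kept their direction and their side of an adjusted p of 0.05, none was reversed, and 1, CDKN1A with DESeq2, passed. DESeq2 thus called 1 of the 10 genes and 3 genes of the lists, where edgeR called 0 of either. Over all genes, edgeR called 7, against 31 with a replicate block, 12 with no filter, 46 with robust fitting, 570 with DESeq2 and 13 with limma on log2(TPM + 1). Leaving out 1 library gave 0 to 87 calls over all genes (0 without either HJ-4 library, where 1040 and 1178 genes had an unadjusted p under 0.05, 87 without DMSO replicate 1 and 33 without DMSO replicate 2), 0 of the 10 genes throughout, and 0 to 1 of the lists. With the libraries left out in turn the log2 fold change ran from -0.42 to 0.14 for CCND3 and from -0.16 to 0.19 for CDK4; the cause was not tested. The libraries are not said to be paired, and same-numbered libraries did not deviate together (r = -0.04 over genes), so the replicate block has no basis in the design; it changed no call of the 9 genes. Replicates were not a single library counted again: the chi-square of their counts, divided by its degrees of freedom, was 20.1 with HJ-4 and 33.1 with DMSO. Scaling by total counts put the median of all genes at -0.025 on the log2 scale, against 0.004 with TMM. For CCND2 the depth allows no statement below 0.101 CPM. With 2 libraries per condition the 95% intervals stay wide, reaching -0.75 for CCND3, 0.43 for CDK4 and -0.87 for CDKN1C.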

Other observations

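The 3 genes whose log2 profile over the 4 libraries was nearest to that of CDKN1A, among 11155 genes whose mean reached 5 CPM, were CNTNAP3B, TENT5B and GPX1, at distances of 0.05, 0.07 and 0.10 on the log2 scale. GPX1, the gene of a glutathione peroxidase, was at 236.5 and 257 CPM with HJ-4 and at 167 and 123.5 CPM with DMSO. CNTNAP3B, which may share reads with near-identical copies, was at 24.6 and 27.9 CPM with HJ-4 and at 18.7 and 14.7 CPM with DMSO, and TENT5B at 52.99 and 55.9 CPM with HJ-4 and at 39.05 and 29.9 CPM with DMSO. Nearest to CCND1 were TMEM183A, PPIE and AKIRIN2, each at a distance of 0.01. These profiles rest on 4 libraries.

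Some regulators of the gate differed more between the replicates of a condition than between conditions. This held in both conditions for MDM2, and with HJ-4 only for CREB1 and MDM4. MDM2, a ubiquitin ligase gene, was at 43.8 and 172 CPM with HJ-4 and at 145 and 54.4 CPM with DMSO, with 1 high library in each condition. CREB1, a transcription factor gene acting on CCND1, was at 16.1 and 41.6 CPM with HJ-4 and at 16.8 and 16.1 CPM with DMSO. MDM4, a partner of MDM2, was at 17.2 and 41.2 CPM with HJ-4 and at 19.2 and 11.6 CPM with DMSO. HJ-4 replicate 2 had the highest level of all 3 genes, and for MDM2 DMSO replicate 1 was high as well. MDM4 was chosen after its values were seen.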
